A study of Mus musculus with 36 samples.

Results

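The comparison described here sets whole bladders of mice given corticosterone (CORT) against whole bladders of mice given vehicle, averaged over the day. Its members are the 18 CORT and the 18 vehicle libraries, which together are all 36 libraries of the series. All animals were C57BL/6 mice whose adrenal glands had been removed on both sides, so the vehicle animals also lacked their own adrenal hormones. CORT was given at what the labels call the inactive timing, after recovery from surgery. Each treatment has 3 libraries at each of 6 time labels (4, 8, 12, 16, 20 and 24 h). The event from which these hours are counted is not given in the labels. Since the labels do not tie a replicate to an animal of its own, the tests reflect how much libraries varied, which may be technical. The difference at each time was estimated from a fit of 12 group means, and the 6 differences were averaged. A positive log2 difference means a higher value in CORT.

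Corticosterone is the main glucocorticoid of rodents. It enters cells, binds the glucocorticoid receptor (Nr3c1) and sends it to DNA, where it raises genes such as Fkbp5 and Tsc22d3 and lowers many immune genes, in part through NF-kB. The bladder wall combines a urothelium that seals the lumen, a stroma of fibroblasts, vessels and resident immune cells, and the detrusor, the smooth muscle that expels urine.

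Values are normalized read counts. The deposited tables had a mean total per library of 11016413 in CORT and 10682675 in vehicle, and all values given here were first brought to a common quantile scale, on which all libraries share one set of quantiles. Urothelial and detrusor genes were abundant under both treatments. The uroplakin Upk2 had a median of 4218 in CORT (2905 to 5585) and of 3600 in vehicle (2849 to 5960), and smooth muscle actin Acta2 one of 44106 (29389 to 63166) and 43009 (18610 to 63166). The extraction text in the labels describes blood RNA and globin removal, whereas the labelled source is whole bladder. The globin Hbb-bs ranged from 529 to 2033 in CORT and from 486 to 3262 in vehicle. For 8 of the 12 replicate 2 libraries, other tables of the series carry the same values under another name. In those tables the 4 h and 8 h libraries of each treatment bear the names of the 16 h and 20 h libraries of the same treatment, and the 16 h and 20 h libraries bear the 4 h and 8 h names of the other treatment. The 36 titles were used as deposited. The library titled CORT 4 h replicate 2 had Tsc22d3 at 4707, against 1854.5 and 3747 in replicates 1 and 3 of that group. The library given its name in the other tables, titled vehicle 16 h replicate 2, had 1155. Replicates 1 and 3 of vehicle 16 h had 1088 and 1573. Which names are right was not tested. Nearly all calls were lost without these 8 libraries (6 remained), and 0 remained with their other names. Most were also lost without replicate 3 (29 remained). Why calls were lost was not tested.

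CORT bladders had lower levels of many stromal, vascular and immune genes and slightly higher levels of ribosomal protein genes, while the best-known glucocorticoid targets did not pass the test on the mean over the day. Of 17867 features tested, 734 (4.11%) differed at an adjusted p below 0.05 (limma). An unadjusted p below 0.05 was found for 3612 features. The 734 calls were 230 higher (1.29%) and 504 lower (2.82%) in CORT, and these shares are the background for the list counts below. Most of these calls were lost with other sets or names of libraries: limma called 6 features without the 8 libraries named in 2 ways, 0 with their other names, 411 without replicate 1, 1 without replicate 2 and 29 without replicate 3. Of the 94 named genes called with all libraries, 4 were called without the 8, namely Aldh1l2, Gbp9, Vwf (von Willebrand factor) and Dtl (an adaptor of a ubiquitin ligase in the cell cycle). With the other names for the 8 libraries 0 of the 94 were called, at adjusted p from 0.401 to 0.84, and all 94 kept their sign in both settings. Every other gene named below as called lost its call in both settings. The median difference of all features was 0.02 on the log2 scale. Differences were small: the median was 0.23 among the called features that were higher and -0.39 among those that were lower. Matrix, endothelial and cell division genes, 455 of the features tested, accounted for 167 of the 734. The balance of directions depended on the scale. With the quantiles of each treatment kept apart, 14.7% of features were called higher and 2.99% lower, so that 83.1% of the calls were higher, against 31.3% on the common scale, and the median of all features moved to 0.07.

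**Figure D1:**
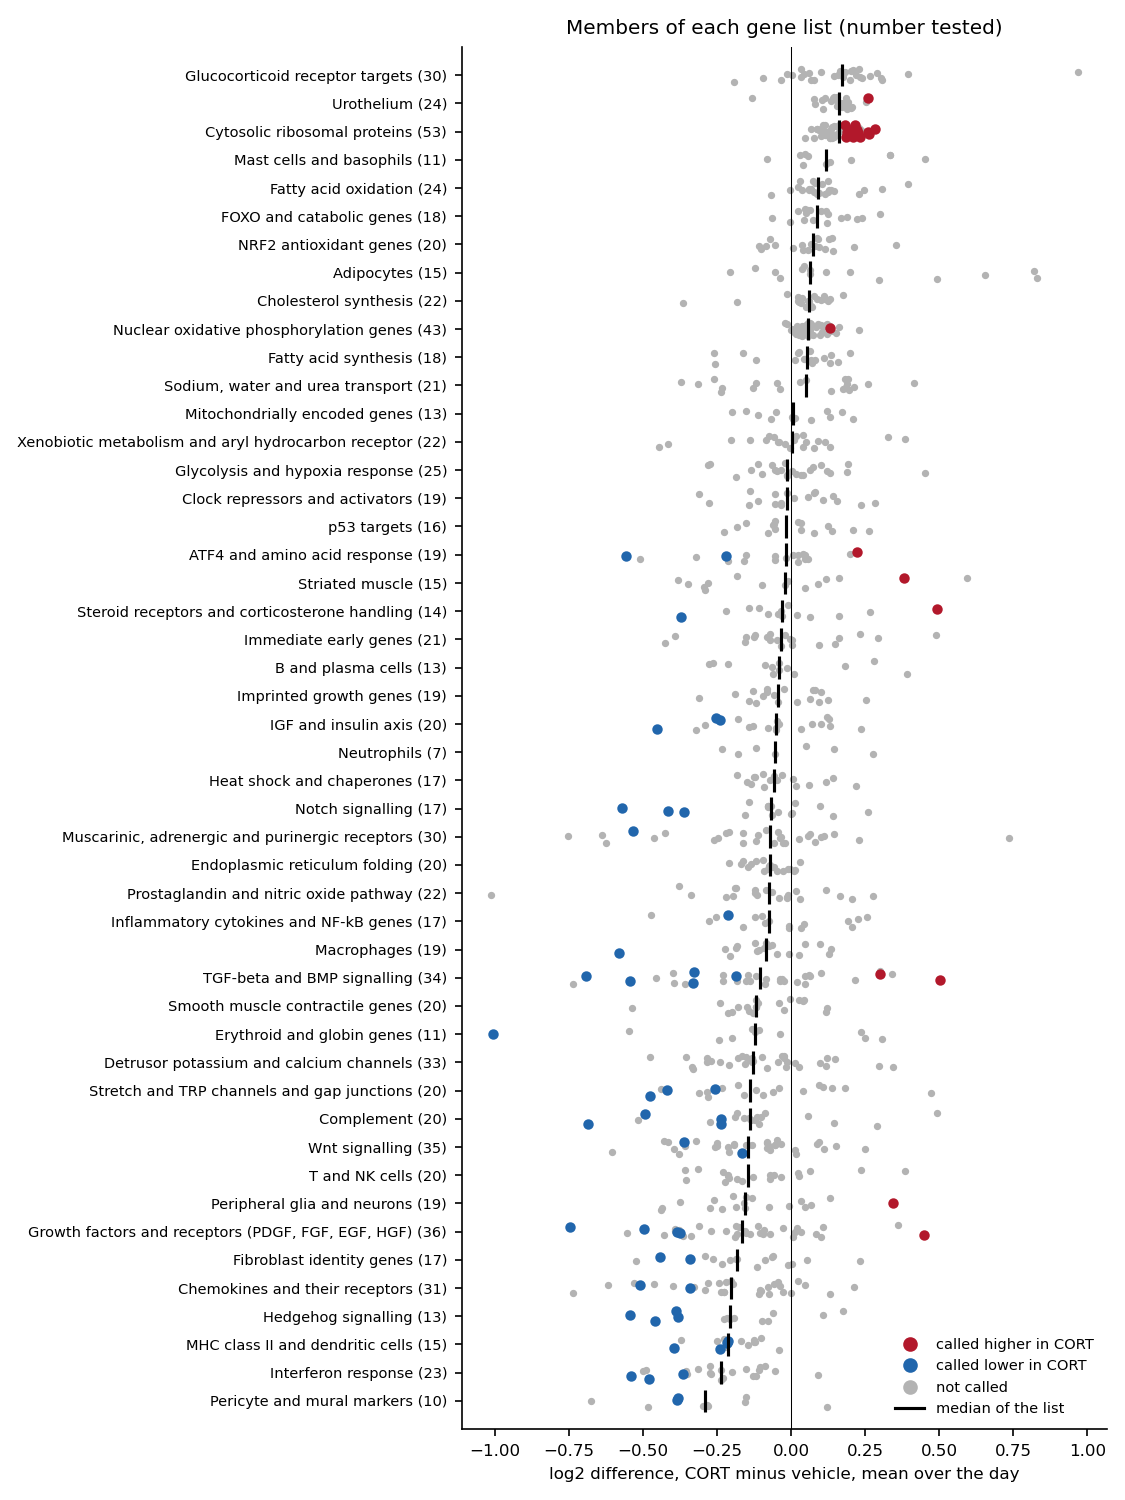
Each point is a gene of the list named on the vertical axis, with the number tested in brackets, and the horizontal axis is its log2 difference, CORT minus vehicle, averaged over the day. Red points were called higher and blue points lower (limma, adjusted p below 0.05), grey points were not called, and black bars are list medians, which run from -0.29 for pericyte and mural markers to 0.17 for glucocorticoid receptor targets.

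The smallest p among genes outside the matrix, endothelial and cell division lists was that of Aldh1l2, the mitochondrial enzyme that oxidises 10-formyltetrahydrofolate in folate metabolism (chromosome 10, 83487450 to 83534140, mm10). Its lowest, median and highest values were 20.0, 34.0 and 56.4 in CORT and 31.6, 54.1 and 89.8 in vehicle. The ranges overlapped, but 17 of 18 CORT libraries lay below the vehicle median. The log2 difference was -0.74 ± 0.09 (SE; adjusted p = 0.000103), and it was -0.69, -0.71 and -0.81 within replicate numbers 1, 2 and 3. Aldh1l2 was lower in CORT at 5 of the 6 times. The exception was 24 h, where it averaged 50.3 ± 5.91 in CORT and 38.3 ± 9.46 in vehicle (SD, n = 3 each).

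Gbp9 came next. It encodes a guanylate-binding protein, one of the interferon-inducible GTPases of cell-autonomous defence (chromosome 5, 105077630 to 105139539). Its values ran from 32.2 through a median of 47.7 to 71.2 in CORT and from 43.4 through 70.4 to 103 in vehicle. Again 17 of 18 CORT libraries were below the vehicle median, and CORT was lower at all 6 times. The log2 difference was -0.55 ± 0.08 (adjusted p = 0.000483). It was -1.29 at 8 h and between -0.61 and -0.27 at the other times. Without the 8 libraries named in 2 ways, Aldh1l2 and Gbp9 had adjusted p of 0.0331 and 0.0336, and with the other names for them 0.416 and 0.401.

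Several other genes with small p values encode cell surface or secreted proteins. The protocadherin Dchs1, a ligand of Fat cadherins, differed by -0.56 on the log2 scale (adjusted p = 0.00168), and the protocadherin Pcdh19 by -0.42 (0.00168). At 8 h Dchs1 differed by -1.07, and at the other times by -0.68 to -0.29. Anpep, the surface aminopeptidase CD13, ranged from 260 to 512 in CORT and from 416 to 721 in vehicle. All 18 CORT libraries lay below the vehicle median of Anpep, and the difference was -0.41 ± 0.07 (adjusted p = 0.00156). The same held for the heparan sulphate proteoglycan Sdc3 (-0.37, adjusted p = 0.00211) and the sorting receptor gene Sorcs2 (-0.28, 0.00168). Clec11a, a secreted lectin that acts as a growth factor for skeletal progenitors, differed by -0.45 (0.000867). By time Clec11a was -0.37, -1.14 and -0.67 at 4, 8 and 12 h, and -0.23, -0.19 and -0.08 at 16, 20 and 24 h. Adcy7, an adenylyl cyclase, differed by -0.52 (0.000867), and Tnfsf10, the death ligand TRAIL, by -0.51 (0.00174). By time Adcy7 was -0.42, -1.10 and -0.90 at 4, 8 and 12 h, and -0.15, -0.13 and -0.45 at 16, 20 and 24 h. Lmf2, a lipase maturation factor, had the narrowest ranges, 305 to 392 in CORT and 363 to 443 in vehicle, with a difference of -0.23 ± 0.03 (adjusted p = 0.00062).

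**Figure D2:**
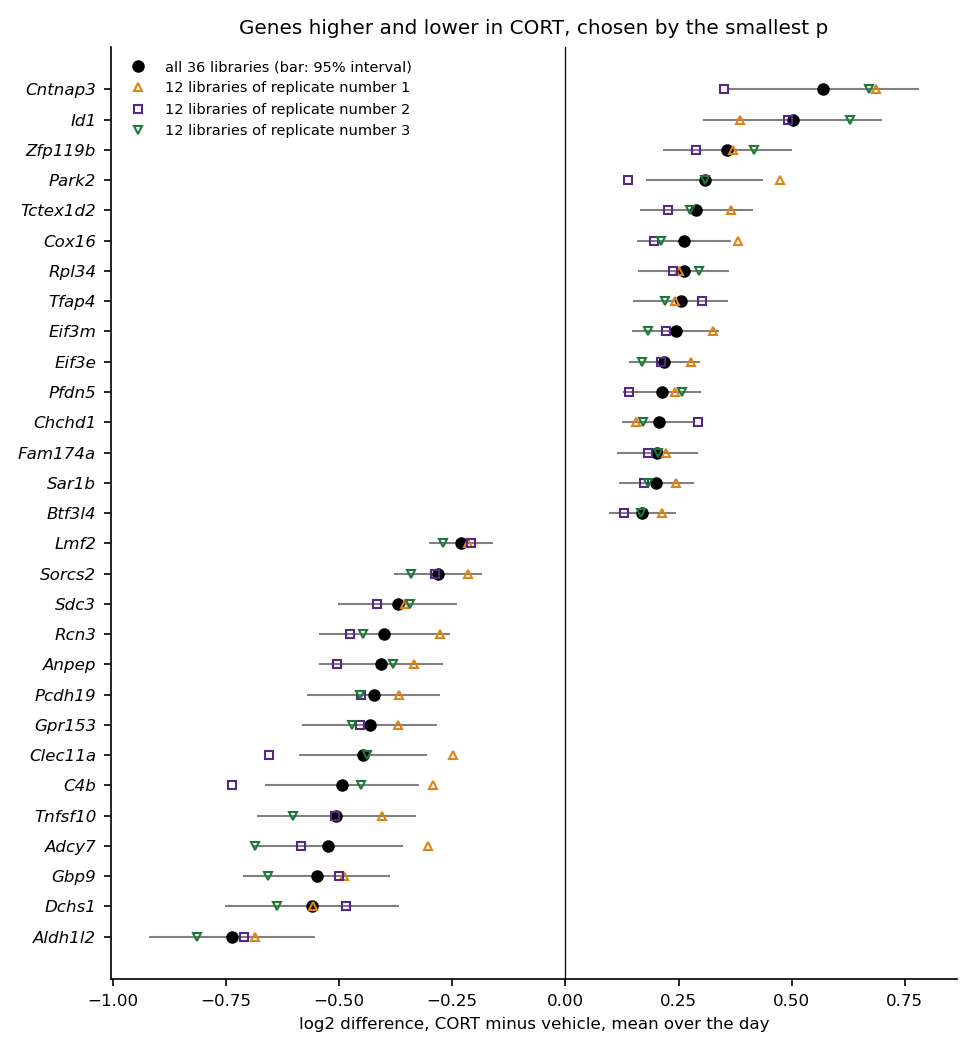
Log2 difference, CORT minus vehicle, averaged over the day for 15 genes higher and 14 lower in CORT, chosen by the smallest p, leaving out matrix, endothelial and cell division genes and low values. Black points are the estimates from all 36 libraries with 95% intervals, and open symbols are the estimates within each replicate number; all symbols of a gene lie on the same side of 0, from -0.74 for Aldh1l2 to 0.57 for Cntnap3.

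**Figure D3:**
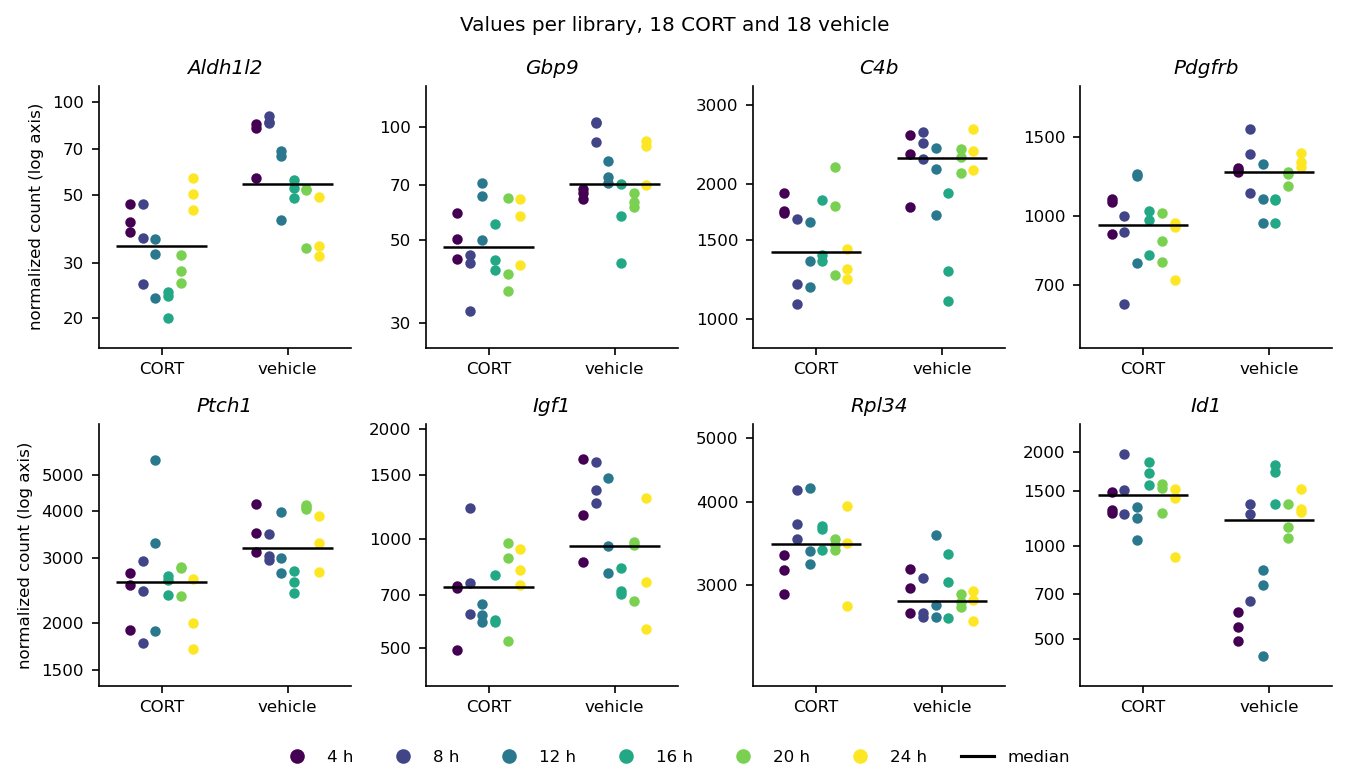
Normalized count on a log axis in each of the 18 CORT and 18 vehicle libraries for 8 genes, coloured by time, with bars at the group medians. The groups overlap in every panel, for example 20.0 to 56.4 in CORT and 31.6 to 89.8 in vehicle for Aldh1l2.

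Interferon response genes encode antiviral effectors that are induced by STAT and IRF factors bound to the interferon-stimulated response element. Of 23 tested, 0 were called higher and 3 lower, against 2.82% of all features called lower, 22 had a negative difference, and the median was -0.24. The list median was -0.69 at 8 h and between -0.21 and -0.04 at the other 5 times. Rsad2, which encodes the antiviral enzyme viperin, had values from 35.0 through 55.1 to 104 in CORT and from 30.4 through 89.8 to 130 in vehicle. Its difference was -0.54 ± 0.11 (adjusted p = 0.00525; 0.117 without the 8 libraries), with 17 of 18 CORT libraries below the vehicle median. Bst2, which encodes the virus-tethering protein tetherin, ranged from 57.6 to 109 in CORT and from 73.9 to 142 in vehicle (-0.37 ± 0.08; 0.00712). The GTPase gene Iigp1 differed by -0.48 ± 0.12 (0.0224). Its difference was -1.62 at 8 h and between -0.345 and -0.10 at the other times. The 20 other members did not pass the test; Isg15, a ubiquitin-like modifier, had -0.50 (0.33) and Ifit1 -0.27 (0.32). The list median was -0.07, -0.22 and -0.47 within replicate numbers 1, 2 and 3.

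The element was looked for in promoters as GAAA, any 2 bases and GAAA or, on the other strand, TTTC, any 2 bases and TTTC, with overlapping matches allowed, from 250 bases before to 50 after the start of each gene (RefSeq, GRCm38.p6). It was found in 12 of the 16 interferon genes that have a promoter sequence, 75%, and in 3.99% of 27025 genes. Shown are windows around the matches of 2 genes that were called and 2 that were not, 5′ to 3′ on the gene's strand, with the matched letters in capitals. They are at chr12:26456543-26456592 for Rsad2 and chr8:71537567-71537622 for Bst2, both on the minus strand, and at chr4:156200855-156200916 for Isg15 on the minus strand and chr19:34640765-34640833 for Ifit1 on the plus strand.
Rsad2: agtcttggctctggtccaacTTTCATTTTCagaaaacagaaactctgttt
Bst2: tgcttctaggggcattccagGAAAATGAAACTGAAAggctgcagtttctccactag
Isg15: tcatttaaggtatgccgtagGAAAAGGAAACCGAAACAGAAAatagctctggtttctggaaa
Ifit1: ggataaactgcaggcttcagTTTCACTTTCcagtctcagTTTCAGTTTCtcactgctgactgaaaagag
A match describes the letters only. Called and uncalled members both held it.

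Antigen presentation by MHC class II uses the peptide-binding chains, the invariant chain Cd74 and the transcriptional coactivator Ciita. Of 15 genes of this list and of dendritic cells, 0 were called higher and 4 lower (26.7%, against 2.82% of all features). All 15 differences were negative, with a median of -0.21 overall and of -0.07, -0.28 and -0.25 within replicate numbers 1, 2 and 3. The median was -0.68 at 24 h, -0.34 at 8 h and between -0.12 and 0.07 at the other 4 times. H2-Ab1, a class II beta chain, had values from 808 through 989 to 1223 in CORT and from 808 through 1182 to 1830 in vehicle. It differed by -0.24 ± 0.05 (adjusted p = 0.00525), and 16 of 18 CORT libraries lay below the vehicle median. The beta chain H2-Eb1 differed by -0.22 (0.0252), Cd74 by -0.21 (0.0278) and Ciita by -0.39 (0.0491). Within replicate numbers 1, 2 and 3, H2-Eb1 differed by -0.07, -0.25 and -0.32, and Cd74 by -0.06, -0.28 and -0.30. The difference at 24 h was -0.79 for H2-Ab1, -0.81 for H2-Eb1 and -0.81 for Cd74, whereas at 16 h it was 0.12, 0.16 and 0.18. Ciita lost its call without any of 29 single libraries and Cd74 without any of 3, with adjusted p of up to 0.0903 and 0.0526. With the quantiles of each treatment kept apart, H2-Eb1 and Cd74 were not called (0.054 and 0.0655). H2-Aa, the alpha chain, had -0.10 (0.33). In bulk tissue, fewer cells of a type and less RNA per cell cannot be told apart.

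Among 19 macrophage genes, 1 was called lower (5.26%, against 2.82% of all features) and none higher, with a median of -0.08. That gene was Cx3cr1, the fractalkine receptor of resident macrophages, with values from 36.9 through 100 to 183 in CORT and from 73.6 through 138 to 199 in vehicle. Its difference was -0.58 ± 0.12 (adjusted p = 0.00508; 0.219 without the 8 libraries), and it was -0.24, -0.88 and -0.62 within the 3 replicate numbers. By time it was -1.67, -1.1 and -0.21 at 4, 8 and 12 h, and 0.35, -0.05 and -0.79 at 16, 20 and 24 h. A treatment by time difference was not called for Cx3cr1 (0.146). General macrophage markers did not pass: Adgre1, which encodes F4/80, ranged from 276 to 472 in CORT and from 278 to 556 in vehicle (-0.19; 0.0699), and the growth factor receptor Csf1r had -0.07 (0.47). The ligand of Cx3cr1, Cx3cl1, was also lower (-0.34; 0.0383). Of 31 chemokine and receptor genes 2 were called lower (6.45%, against 2.82% of all features) and none higher, and the median was -0.20. Cx3cl1 lost its call without any of 19 single libraries, with an adjusted p of up to 0.0703. The list median was -0.01 within replicate number 1, -0.25 within 2 and -0.27 within 3.

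The complement list had 4 of 20 members lower (20%, against 2.82% of all features) and 0 higher, with a median of -0.14. C4b, the central component of the classical and lectin pathways (chromosome 17, 34728380 to 34743882), had values from 1079 through 1408 to 2174 in CORT and from 1098 through 2281 to 2641 in vehicle. Every CORT library was below the vehicle median, and the difference was -0.49 ± 0.08 (adjusted p = 0.00168; 0.143 without the 8 libraries). Within replicate numbers 1, 2 and 3 it was -0.29, -0.74 and -0.45. By time it was -0.92 at 8 h, -0.85 at 24 h and 0.12 at 16 h, and between -0.59 and -0.30 at the other times. The protease genes C1ra (-0.24; 0.0355) and Masp1 (-0.68; 0.0319) and the inhibitor gene Serping1 (-0.24; 0.0377) were also lower. These 3 lost their calls without any of 14, 13 and 18 single libraries, and C1ra and Serping1 were not called with the quantiles of each treatment kept apart (0.0609 and 0.0621). C3 had 0.29 (0.36). The NF-kB list had 1 of 17 called lower (5.88%, against 2.82% of all features) and none higher. This was Nfkb2, the p100 subunit, at -0.21 (0.0265), with all 18 CORT libraries below the vehicle median. Nfkb2 was not called with the quantiles of each treatment kept apart (0.0686).

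Called genes of signalling between epithelium and stroma were mostly lower in CORT. In the Hedgehog pathway, ligand from the urothelium binds the receptor Ptch1 on stromal cells, which releases Smo and activates Gli factors; Ptch1, Gli1 and Hhip are themselves induced by it. Of 13 genes, 0 were called higher and 4 lower (30.8%, against 2.82% of all features), with a median of -0.20. Ptch1 had values from 1700 through 2571 to 5471 in CORT and from 2415 through 3190 to 4184 in vehicle. The highest value was a CORT library at 12 h, so the ranges overlapped fully, but 16 of 18 CORT libraries lay below the vehicle median. The difference was -0.38 ± 0.10 (adjusted p = 0.0303). Hhip, a decoy receptor for the ligand, ranged from 639 to 3389 in CORT and from 1469 to 3322 in vehicle (-0.54 ± 0.15; 0.037). By time Hhip was -1.14 at 8 h and between -0.78 and -0.03 at the other times. The transcription factor Gli2 differed by -0.39 (0.0235). Gli1 had -0.20 (0.21), the transducer Smo -0.06 (0.52), and the ligand Shh 0.18 (0.2). Gli2 was called without each single library. Ptch1 was lost without any of 7 libraries (up to 0.0573) and Hhip without any of 18 (up to 0.0673).

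Pericyte and mural markers had the lowest median of the 48 lists, -0.29, with 2 of 10 called lower (20%, against 2.82% of all features) and none higher. By time the list median was -0.60 at 8 h and between -0.35 and -0.13 at the other times. Pdgfrb, the PDGF receptor of pericytes and fibroblasts, had values from 632 through 953 to 1237 in CORT and from 961 through 1252 to 1564 in vehicle. All 18 CORT libraries were below the vehicle median, and the difference was -0.38 ± 0.07 (adjusted p = 0.00282; 0.143 without the 8 libraries), with -0.38, -0.35 and -0.41 within the 3 replicate numbers. Ndufa4l2, a mitochondrial protein of hypoxic cells and pericytes, differed by -0.38 as well (0.0103), whereas the pericyte marker Rgs5 had 0.12 (0.32). Fibroblast identity genes had 2 of 17 lower (11.8%, against 2.82% of all features), Pi16 (-0.44; 0.0046) and Thy1 (-0.34; 0.0314), and a median of -0.18. For Pi16 the difference was -0.10 within replicate number 1, -0.74 within 2 and -0.49 within 3. Thy1 lost its call without any of 10 single libraries (up to 0.0582).

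Endothelial genes moved in the same direction. Of 101 tested, 36 were lower (35.6%, against 2.82% of all features) and none higher. The median was -0.28, and the summed level per library was 40634 to 60580 in CORT and 45236 to 66710 in vehicle. The Notch ligand Dll4 (-0.42; 0.00547) and the receptor Notch4 (-0.36; 0.0432) belong to that list as well, and Notch4 lost its call without any of 19 single libraries (up to 0.081). The Notch target Heyl, a gene of vascular smooth muscle, differed by -0.57 (0.0158). In all, 3 of 17 Notch genes were lower (17.6%, against 2.82% of all features) and none higher. The connexin Gja4, which joins vascular cells, had 36.4 to 92.1 in CORT and 60.4 to 125 in vehicle (-0.48; 0.00763). The part of endothelial content in these values was not tested.

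Called genes of the growth factor lists were mostly lower in CORT. Igf1, the insulin-like growth factor made by stromal and muscle cells, had values from 494 through 737 to 1211 in CORT and from 567 through 958 to 1651 in vehicle. With 16 of 18 CORT libraries below the vehicle median, it differed by -0.45 ± 0.12 (adjusted p = 0.0311), but it lost the call without any of 12 single libraries (up to 0.0583). The difference of Igf1 was -0.87, -0.76 and -0.74 at 4, 8 and 12 h, and -0.19, -0.16 and 0.02 at 16, 20 and 24 h. A treatment by time difference was not called for it. The insulin receptor substrate Irs1 (-0.25; 0.0383) and the binding protein gene Igfbp7 (-0.24; 0.0161) were the other 2 lower of 20 IGF and insulin genes, and none was higher. The share lower was 15% in that list, against 2.82% of all features. Irs1 was lost without any of 20 single libraries (up to 0.0728) and was not called with the quantiles of each treatment kept apart (0.0686). In the TGF-beta and BMP list, 2 of 34 were higher (5.88%, against 1.29% of all features) and 5 lower (14.7%, against 2.82%). The ligands Bmp4 (-0.33; 0.039) and Bmp5 (-0.54; 0.0334), the latent TGF-beta binding genes Ltbp2 (-0.69; 0.0022) and Ltbp4 (-0.33; 0.00354), and the receptor Tgfbr2 (-0.18; 0.0437) were lower. Bmp4 and Bmp5 lost their calls without any of 20 and 14 single libraries. By time Bmp5 was -1.19 at 8 h, -0.83 at 20 h and -0.86 at 24 h, and between -0.20 and -0.04 at 4, 12 and 16 h.

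The genes Id1 and Id2, which encode inhibitors of basic helix-loop-helix factors and are induced by BMP signals, were higher. Id1 (chromosome 2, 152736251 to 152737410) had values from 922 through 1456 to 1971 in CORT and from 442 through 1209 to 1818 in vehicle. Its difference was 0.50 ± 0.10 (adjusted p = 0.00391), with 0.39, 0.49 and 0.63 within the 3 replicate numbers. The 7 lowest Id1 libraries were the vehicle ones at 4 and 12 h and vehicle 8 h replicate 1 (662). Id1 averaged 1356 ± 114 in CORT and 550 ± 58.6 in vehicle at 4 h, and 1201 ± 146 in CORT and 673 ± 205 in vehicle at 12 h, whereas at 24 h it averaged 1291 ± 324 in CORT and 1371 ± 127 in vehicle (SD, n = 3 each). Id2 differed by 0.30 ± 0.07 (0.0187).

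Among PDGF, FGF, EGF and HGF genes, 4 of 36 were lower (11.1%, against 2.82% of all features) and 1 higher (2.78%, against 1.29%). Besides Pdgfrb these were Pdgfc, a ligand (-0.38; 0.0366), Spry4, a feedback inhibitor of receptor tyrosine kinases (-0.50; 0.0303), and Fgfr4, with values of at most 9.36 in any library (-0.75; 0.0497). Egf was higher, with 6.06 to 17.2 in CORT and 3.89 to 14.4 in vehicle (0.45; 0.0354). The secreted Wnt modulators Sfrp1 (-0.16; 0.0444) and Sfrp2 (-0.36; 0.0475) were the 2 lower of 35 Wnt genes (5.71%, against 2.82% of all features). Each lost its call without any of 25 single libraries and with the quantiles of each treatment kept apart (0.146 and 0.0551). Spry4, Egf and Fgfr4 lost theirs without any of 7, 17 and 24.

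Detrusor genes as a group were not called. Of 20 contractile genes limma called 0 in either direction (0 higher and 1 lower at an unadjusted p below 0.05), with a median of -0.12, and likewise 0 of 33 potassium and calcium channel genes (1 higher and 6 lower at an unadjusted p below 0.05), with a median of -0.13. Myh11, the smooth muscle myosin, had a median of 105380 under either treatment and a difference of -0.04 (0.93). On the common quantile scale the most abundant genes share a few set values, so equal medians at this level do not show equal amounts. Among stretch-activated and TRP channels and gap junctions, 3 of 20 were lower (15%, against 2.82% of all features) and none higher. Piezo1, a channel opened by membrane stretch, had values from 712 through 886 to 1132 in CORT and from 802 through 1035 to 1276 in vehicle. It differed by -0.26 ± 0.07 (adjusted p = 0.0271) with 16 of 18 CORT libraries below the vehicle median, and it lost the call without CORT 12 h replicate 3 (0.051). The cation channel Trpc6 differed by -0.42 (0.0491) and lost its call without any of 22 single libraries (up to 0.0876). Of 30 muscarinic, adrenergic and purinergic receptor genes 1 was lower (3.33%, against 2.82% of all features), the alpha-2A adrenergic receptor Adra2a, with 18.5 to 57.5 in CORT and 25.9 to 80.9 in vehicle (-0.53; 0.00712). Of nerve and glia genes 1 of 19 was called higher (5.26%, against 1.29% of all features) and 0 lower. This was Uchl1, a ubiquitin hydrolase, with 2413 to 5585 in CORT and 2647 to 5284 in vehicle (0.34; 0.0198). Uchl1 went against most of its list, in which 14 of 19 differences were negative, with a median of -0.15.

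Cytosolic ribosomal protein genes had the most called members on the higher side among the lists. Of 53, 13 were called higher (24.5%, against 1.29% of all features) and 0 lower, all 53 differences were positive, and the median was 0.16. Rpl34, a protein of the large subunit (chromosome 3, 130726831 to 130730398), had values from 2790 through 3465 to 4198 in CORT and from 2645 through 2837 to 3568 in vehicle. All but 1 of the 18 CORT libraries were above the vehicle median, and the difference was 0.26 ± 0.05 (adjusted p = 0.00354), with 0.25, 0.24 and 0.29 within the 3 replicate numbers. Rps4x, a small subunit protein, ranged from 8763 to 14834 in CORT and from 7767 to 10470 in vehicle (0.23; 0.0174). Rps14 (0.28; 0.036) and Rps7 (0.26; 0.0295) had larger differences and lost their calls without any of 18 and 7 single libraries. Leaving out single libraries gave 5 to 29 called members, and a term for the replicate number in the fit gave 27. With the quantiles of each treatment kept apart, where 14.7% of all features were called higher, 42 were called. Without the 8 libraries, or without replicate 2 or 3, 0 were called. Ribosomal protein genes have many processed copies in the genome, and the handling of reads shared with them is not given in the sources used here.

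Genes with the smallest p on the higher side had mixed roles. Eif3e, a subunit of initiation factor eIF3, had values from 2195 through 2505 to 2838 in CORT and from 1948 through 2135 to 2540 in vehicle. All 18 CORT libraries were above the vehicle median, and the difference was 0.22 ± 0.04 (adjusted p = 0.00214; 0.151 without the 8 libraries), the smallest p on the higher side under the naming rule. Another eIF3 subunit, Eif3m, ranged from 941 to 1490 in CORT and from 895 to 1081 in vehicle (0.24; 0.00413). Pfdn5, a subunit of the prefoldin chaperone, had 1287 to 1787 in CORT and 1120 to 1390 in vehicle (0.21; 0.0043). The mitochondrial ribosome gene Chchd1 (0.21; 0.00391), the cytochrome oxidase assembly gene Cox16 (0.26; 0.00393) and the vesicle coat GTPase gene Sar1b (0.20; 0.00525) were higher too. Of 43 nuclear oxidative phosphorylation genes 1, Cox4i1, was higher (2.33% of the list, against 1.29% of all features), with a list median of 0.06. Cox4i1 differed by 0.13 (0.0313) and lost its call without any of 10 single libraries, and 20 of the 43 were called higher with the quantiles of each treatment kept apart. None of 13 mitochondrially encoded genes was called on the common scale.

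Transcript length and GC content moved with the direction of the calls. The median longest transcript was 2413 bases among called features higher in CORT, 4293 among those lower and 3165 among all features. The median GC content of these transcripts was 45.5%, 52.5% and 49.4%. Of features with a mean of at least 20 split into 5 equal bins by length, 3.31% were called higher and 1.95% lower in the shortest bin, and 0.678% and 6.14% in the longest. Per library, the median log2 deviation of the longest minus the shortest bin ran from -0.206 to 0.0938 in CORT (median -0.0449) and from -0.0969 to 0.109 in vehicle (median 0.0279). Ribosomal protein genes are short, with a median of 1128 bases. Their median difference relative to features of the same length bin was 0.11, against 0.16 before that. For Hedgehog genes it was -0.21, against -0.20, and for nuclear oxidative phosphorylation genes 0.0067, against 0.058. The trend with length was not shared by all replicate numbers. The median difference in the shortest and the longest bin was 0.072 and -0.036 within replicate number 1, 0.015 and 0.024 within 2, and 0.071 and -0.016 within 3.

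Other genes on the higher side had varied roles. Cntnap3, a contactin-associated membrane protein, had values from 26.9 through 38.5 to 53.4 in CORT and from 13.5 through 27.5 to 44.5 in vehicle (0.57 ± 0.10; adjusted p = 0.00282). Park2, the ubiquitin ligase parkin, ranged from 85.1 to 133 in CORT and from 55.5 to 126 in vehicle, with all 18 CORT libraries above the vehicle median (0.31; 0.00642). The lipoprotein receptor gene Vldlr also had all 18 above it (0.22; 0.0265). In the urothelium list 1 of 24 was called (4.17%, against 1.29% of all features called higher), the tight junction claudin Cldn8 (0.26; 0.0343), with values from 910 through 1399 to 1752 in CORT and from 895 through 1128 to 1651 in vehicle. Cldn8 lost its call without any of 17 single libraries, and 8 of the 24 were called higher with the quantiles of each treatment kept apart. Of the 24 urothelial differences 23 were positive, with a median of 0.16 overall and of 0.13, 0.04 and 0.29 within replicate numbers 1, 2 and 3. The summed level of the list was 81299 to 150420 in CORT and 79446 to 178060 in vehicle.

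**Figure D4:**
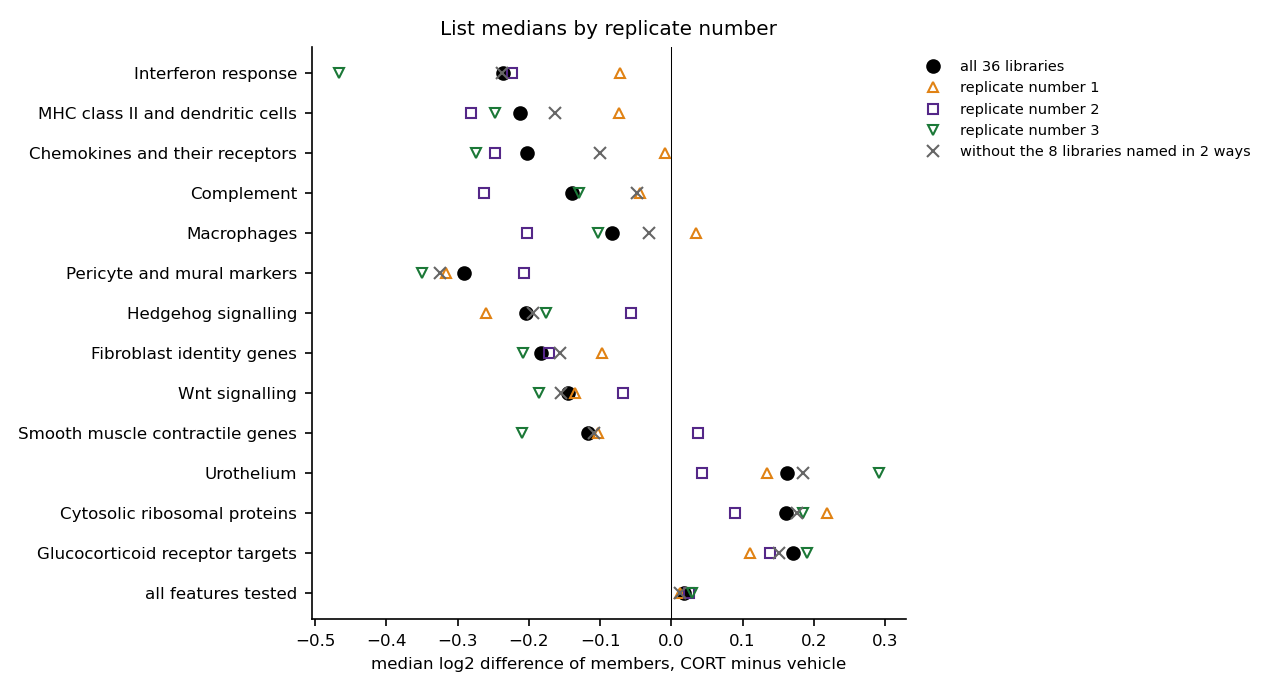
Median log2 difference, CORT minus vehicle, of the members of 13 gene lists and of all features, from all 36 libraries, from the 12 libraries of each replicate number, and without the 8 libraries named in 2 ways. Medians of interferon, MHC class II, complement and chemokine genes lie closest to 0 within replicate number 1 (-0.07, -0.07, -0.04 and -0.01). Those of macrophage and smooth muscle genes change sign between replicate numbers.

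Glucocorticoid receptor targets were not called on the mean over the day. Of 30 tested, limma called 0 in either direction, and 6 higher and 0 lower passed at an unadjusted p below 0.05; 26 differences were positive and the median was 0.17. With the quantiles of each treatment kept apart 5 were called higher, and without single libraries 0 to 4. A term for the replicate number in the limma fit gave 2 calls, with Fkbp5 at an adjusted p of 0.0417. Fkbp5, a chaperone of the receptor, had values from 276 through 601 to 3138 in CORT and from 361 through 542 to 973 in vehicle. Its difference was 0.40 ± 0.13 (adjusted p = 0.0928), and with the quantiles of each treatment kept apart it was 0.47 (0.0209). Tsc22d3, the anti-inflammatory mediator GILZ, ranged from 596 to 4707 in CORT and from 578 to 1573 in vehicle (0.20; 0.332), and 12 of 18 CORT libraries lay below the vehicle median. The receptor gene Nr3c1 had medians of 1869 in CORT and 2087 in vehicle (-0.11; 0.415). Of 14 steroid receptor and corticosterone-handling genes, 1 was called lower and 1 higher (7.14% each, against 2.82% and 1.29% of all features). The efflux pump Abcb1a, which exports corticosteroids, was lower (-0.37; 0.0165). The oestrogen receptor Esr2 was higher at low values, 6.39 to 22.7 in CORT and 2.86 to 20.8 in vehicle (0.49; 0.0383). Esr2 lost its call without any of 18 single libraries.

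The daily mean averaged opposite signs for these targets. Differences between CORT and vehicle varied with time for 24 of 17867 features (0.134%; limma F test of treatment by time). Tsc22d3 differed by 2.31 at 4 h and by -0.10, -0.46, 0.09, -0.54 and -0.09 at 8, 12, 16, 20 and 24 h. Fkbp5 differed by 2.19 at 4 h, 0.65 at 8 h and -0.69 at 12 h, and the clock gene Per1 by 2.13, -0.88 and -1.22. The median of the 30 targets was 0.94 at 4 h and between -0.22 and 0.19 at the other times. None of the 19 clock genes was called on the daily mean, with a median of -0.01, and 10 of the 24 time-dependent features were genes of that list, among them Nr1d1, Dbp and Arntl. Of the 107 genes named by rule, 3 were time-dependent: Tsc22d3, Fkbp5 and Per1. Without the 8 libraries named in 2 ways, limma called 0 features for treatment by time, and 640 had an unadjusted p below 0.05, against 984 with all libraries.

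**Figure D5:**
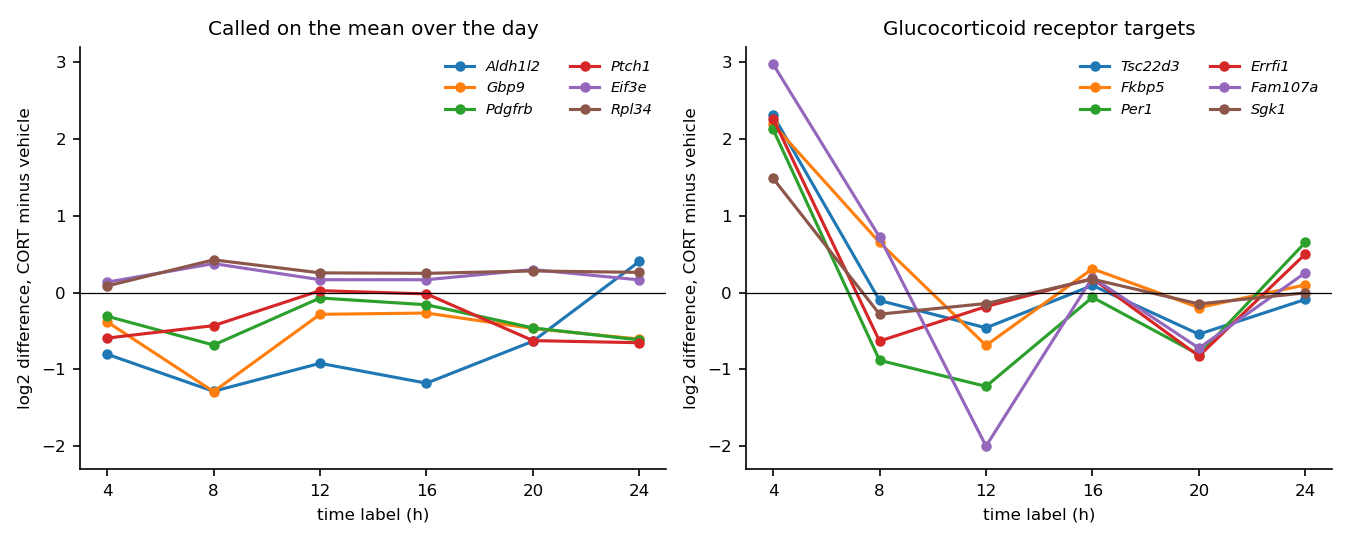
Log2 difference, CORT minus vehicle, at each time label for 6 genes called on the mean over the day and 6 glucocorticoid receptor targets (3 libraries per treatment and time). The targets lie between 1.49 and 2.98 at 4 h and on either side of 0 afterwards, whereas Eif3e and Rpl34 are above 0 and Gbp9 and Pdgfrb below 0 at all 6 times.

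Sgk1, a kinase gene that limits sodium loss, was the only glucocorticoid target with the full palindromic response element in its promoter window. The element was searched as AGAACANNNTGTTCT, the same on either strand, and was found in 1 of 27 targets and in 3 of 27025 genes (0.0111%). The window is at chr10:21993681-21993735 on the plus strand of GRCm38.p6, from RefSeq, with the element in capitals.
Sgk1: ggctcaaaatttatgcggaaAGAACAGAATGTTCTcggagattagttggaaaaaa
The half-sites AGAACA or TGTTCT were in 18.5% of the targets' windows and in 21.3% of all. Sgk1 itself had values from 349 through 539 to 1480 in CORT and from 310 through 543 to 807 in vehicle, with a daily mean difference of 0.18 (0.406) and a difference of 1.49 at 4 h.

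No member of many other lists was called in either direction by limma. These were the lists of adipocytes, T and NK cells, B and plasma cells, neutrophils, mast cells, immediate early genes, heat shock, endoplasmic reticulum folding, NRF2, p53 and FOXO targets, cholesterol and fatty acid synthesis, fatty acid oxidation, glycolysis, xenobiotic metabolism, imprinted growth genes, sodium and water transport, and prostaglandin and nitric oxide genes. Their medians ran from -0.15 for T and NK cells to 0.12 for mast cells. With the quantiles of each treatment kept apart, where 14.7% of all features were called higher, 11 of 24 fatty acid oxidation genes were called higher, as were 5 of 18 for fatty acid synthesis, 5 of 25 for glycolysis, 5 of 21 for sodium and water transport, 4 of 18 for FOXO and 4 of 20 for NRF2 genes. The other lists named here had 0 to 2 higher in that setting. The adipocyte gene Adipoq, a measure of attached fat, varied from 0 to 317 in CORT and from 0 to 635 in vehicle. The amino acid response list had Pycr1, a proline synthesis enzyme (-0.56; 0.0165), and the factor Atf5 (-0.22; 0.0473) lower and Vldlr higher, of 19. The shares of that list were 10.5% lower and 5.26% higher, against 2.82% and 1.29% of all features. Atf5 lost its call without any of 24 single libraries and with the quantiles of each treatment kept apart (0.0925).

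Directions were shared by the replicate numbers, but calls were not made within them. Of the 230 features called higher, 230 of 230, 229 of 229 and 230 of 230 with a value were positive within replicate numbers 1, 2 and 3, with medians of 0.25, 0.19 and 0.26. Of the 504 called lower, 502 of 504, 502 of 502 and 501 of 502 were negative, with medians of -0.30, -0.40 and -0.42. These libraries also entered the pooled fit, so the shared signs are no separate test. Within replicate number 1, 2 or 3 alone limma called 0 features, and 1317, 1304 and 2631 had an unadjusted p below 0.05. Without the 8 libraries named in 2 ways, 2207 features had an unadjusted p below 0.05, and the called features kept their signs with medians of 0.24 and -0.36. With the other names for those libraries, 1434 had an unadjusted p below 0.05. Of the 94 named genes that were called, 63 were called without each of the 36 single libraries, including all 30 with the smallest p.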

How the data were processed

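Whole-bladder total RNA was depleted of ribosomal RNA before strand-specific library preparation, per the labels' protocols. Per the submitters' processing notes the genome build was mm10. Which aligner and counter made the values is not given in the sources used here. As deposited, the files hold normalized count signal per gene, in tables of 12 libraries each (2 replicate numbers of 1 treatment), whose sorted values are identical within a table, so they are quantile-normalized. Other tables deposited by the authors hold log2 values of selected genes and were used only to compare library names. 0 value columns lacked a sample.

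For this comparison the 3 tables of a treatment were joined into one quantile scale and both treatments set to their mean. Differences were fitted on log2(value + 1), which understates low genes, with limma 3.58.1 in R 4.3.3 as 12 group means, with Benjamini-Hochberg adjustment; p-values in brackets are adjusted. A feature was dropped where over 50% of libraries stood at the lowest value. This model gave all p-values, ± SE and 95% intervals, except that fits within 1 replicate number, with 1 library per group, used treatment and time as additive terms in limma. The model was tried on simulated libraries drawn independently of each other, without effects of time or replicate number. That trial does not cover the likeness of same-numbered libraries or the doubtful library names here. Genome positions are from GENCODE M21 (mm10). Depth per library cannot be seen after quantile normalization; mean totals by treatment and replicate number were 9591304 to 12311337.

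Genes named were the 15 higher and 15 lower with the smallest p and a mean of at least 20, leaving out matrix, endothelial and cell division genes, predicted genes and histones, then up to 4 called members per list, and 14 genes set by name; some genes that met the rule are not reported here. Other list members named in the text were chosen after their values were seen. The members and the 48 gene lists were chosen with earlier results of these data known. Alternatives covered the pseudocount, the filter, the scale, the variance model, library weights, the replicate block, the 8 library names, and leaving out each library and each replicate number. The time of replicate 3 libraries comes from their titles.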

Additional observations from a re-analysis of the deposited data

Results flagged for a closer look

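For 3 genes named here the difference between CORT and vehicle itself changed with time, by limma's F test of treatment by time. The adjusted p was 0.0391 for Fkbp5, 0.00226 for Tsc22d3 and 0.000568 for Per1. Their daily means, which were not called, average differences of opposite sign.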

How the results depend on the processing

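The count of 734 called features (230 higher, 504 lower) stayed within 1.5 times under other pseudocounts, filters and an intensity trend. It was 3140 (2609 higher) with the quantiles of each treatment kept apart and 3145 (1666 higher, 1479 lower) with library weights, which also gave 229 features with a treatment by time difference. A replicate block gave 1240 (537 higher). Among them were 27 ribosomal protein genes and 2 glucocorticoid receptor targets, with Fkbp5 at an adjusted p of 0.0417. Same-numbered libraries of different groups had a mean correlation of deviations of 0.0559, with 31.3% of pairs over 0.1. Libraries of different groups with other numbers had a mean of -0.0279, with 8.08% of pairs over 0.1. Same-numbered libraries were thus somewhat more alike, and the main fit has no replicate term. Without the 8 libraries named in 2 ways, 6 features were called (1 higher, 5 lower), and with their other names 0 in either direction; treatment by time gave 0 in both. Within each replicate number 0 were called. Leaving out a replicate number or a single library gave 1 to 1282 called features, 0 to 536 higher, 1 to 746 lower, and 0 to 61 with a treatment by time difference. The lowest of these came without replicate 2; without single libraries the range was 408 to 1282. The causes were not tested.

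Among the genes named here, signs turned only for some that were not called. Per1 was 0.038 with separate quantiles, 0.070 within replicate number 3, 0.11 with the other names, and -0.10 to 0.022 when a replicate number or a library was left out. Klf9 was 0.050 with separate quantiles, 0.071 within replicate number 1, 0.079 with the other names, and -0.058 to 0.028 on leaving out. Within replicate number 3, Zbtb16 was -0.23 and Hbb-bs 0.26, and with the other names Hbb-bs was 0.0018. Within replicate number 2, Upk2 was -0.0070, Krt5 -0.051 and Acta2 0.16. Acta2 was 0.0043 without the 8 libraries, 0.042 with their other names and -0.086 to 0.060 on leaving out. Adipoq was -0.71 within replicate number 1 and -0.27 to 0.66 on leaving out.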
